A study of Mus musculus with 5 samples.

Results

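Thick ascending limb cells are the salt-reabsorbing epithelial cells of the distal loop of Henle, and they were studied here in mouse kidney by droplet single-cell RNA sequencing. They were selected on measured values, from raw UMIs (unique molecular identifiers, which count captured mRNA molecules). A barcode was kept with at most 30% of its UMIs from mitochondrially encoded genes and at least 200 detected genes. A kept barcode was taken as a thick ascending limb cell when it held at least 2 UMIs and at least 5 UMIs per 10000 of Slc12a1, more Slc12a1 than Slc12a3 UMIs, no UMI of Ptprc and at most 2 UMIs of Slc34a1. Slc12a1 encodes the sodium-potassium-chloride cotransporter of this segment, Slc12a3 the sodium-chloride cotransporter of the distal convoluted tubule, Ptprc the leukocyte antigen CD45 and Slc34a1 a phosphate transporter of the proximal tubule. The rule found 2277 cells among 60043 kept barcodes, of 72896 barcodes in all. The levels of these 4 genes chose the cells, so differences in their levels are not given as results.

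The libraries came from wild-type mice, male C57BL/6 animals between 8 and 10 weeks old. Aristolochic acid I (AAI), a plant nephrotoxin, was injected intraperitoneally at 3 mg/kg every 3 days over 2 weeks. There was 1 control library from vehicle-injected mice, 2 libraries (AKI 1 and AKI 2) from the acute kidney injury phase at week 2, and 2 libraries (CKD 1 and CKD 2) from the chronic kidney disease phase at week 4, after 2 weeks without AAI. The labels do not tie libraries to separate mice, so p-values measure only the spread between these libraries.

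The thick ascending limb reabsorbs salt without water through the apical Slc12a1 cotransporter, the apical potassium channel Kcnj1 and basolateral chloride channels. The positive voltage in its lumen drives calcium and magnesium through tight junctions built from Cldn16 and Cldn19, while Cldn10 forms junctions selective for sodium. The cells secrete uromodulin (Umod), the most abundant protein of normal urine, and are a main renal source of epidermal growth factor (Egf). Where the segment touches its glomerulus, macula densa cells sense salt and signal through Nos1 and prostaglandins.

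Control held 860 of these cells, AKI 1 held 192, AKI 2 held 115, CKD 1 held 1031 and CKD 2 held 79. Their median depth ranged from 2582 UMIs in CKD 1 to 4743 in AKI 2, their summed UMIs from 679766 in CKD 2 to 5827505 in control, and the median share of mitochondrially encoded UMIs from 7.19% in CKD 2 to 18.9% in control. Of 10 marker lists of other cell types, 5 summed to their highest level in CKD 1 and 5 in control. The 12 T lymphocyte markers summed to 6.48 UMIs per 10000 in CKD 1 and to 0.353 to 1.40 in the other libraries, the 9 macrophage markers to 5.90 against 0.559 to 2.99, and the 15 proximal tubule markers to 23.4 against 4.85 to 13.5, and the stroma and neutrophil lists were highest there too. In control the 5 distal convoluted tubule markers summed to 13.2 against 1.94 to 3.63 in the other libraries, but most of this was Wnk1, which is also in the salt transport list, and without it the sums were 3.13 against 0.294 to 0.869. The 8 endothelial markers summed in control to 8.52 against 0.404 to 4.21 and the 11 collecting duct markers to 7.31 against 0.942 to 6.27, and the podocyte and B lymphocyte lists were highest there too. None of the 10 lists had all its markers at 0 in any library. A list of another cell type held more UMIs than the 8 markers of the thick ascending limb in 32.9% of the cells of CKD 1, 21.7% in control, 22.4% in AKI 1, 10.4% in AKI 2 and 3.80% in CKD 2. Between 0 and 6 cells of a library shared their barcode sequence with a kept barcode of any 1 other library.

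The label was checked on 7 markers that the rule did not use, namely Umod, Cldn16, Kcnj1, Cldn10, Cldn19, Ptger3 and Egf. At least 3 of them were detected in 55.6% to 68.4% of the cells of a library, and 0.581% to 5.22% of the cells had none. The same shares were not computed for other barcodes. In control, 87.1% of barcodes with a Ptprc UMI held Umod and 74.9% held Egf, so these 2 markers separate the cells weakly there. Kcnj1 was in 23.5% of those barcodes and 56.9% of the control cells. Cldn10, Cldn16, Cldn19 and Ptger3 were each in 2.66% to 8.41% of those barcodes and 28.1% to 36.9% of the control cells. Umod was without a UMI in 43 of the 860 cells in control, the lowest share, and in 10.4% in AKI 1, the highest. Just inside the lower limit of the rule, the 167 control cells with exactly 2 Slc12a1 UMIs held 14.8 Umod UMIs per 10000, and the 227 control barcodes just outside it, with 1 Slc12a1 UMI, held 18.9. In CKD 1 the same values were 28.9 in 330 cells and 18.6 in 393 barcodes. In AKI 1 they were 24.98 in 44 cells and 9.67 in 125 barcodes, in AKI 2 17.4 in 18 cells and 7.53 in 71 barcodes, and in CKD 2 97.6 in 6 cells and 16.5 in 28 barcodes. At this limit Umod was higher inside than outside in every AAI library but not in control. At the limit of 5 per 10000 the order was another. Cells with 5 to under 6 Slc12a1 UMIs per 10000 held 9.30 Umod UMIs per 10000 in control, 35.6 in AKI 1, 33.9 in AKI 2 and 23.5 in CKD 1 (32, 4, 7 and 36 cells), and barcodes with 4 to under 5 held 5.96, 22.8, 90.6 and 55.3 (32, 2, 7 and 25 barcodes), so that AKI 2 and CKD 1 were lower inside. CKD 2 had 1 cell and no barcode in these ranges. Cells with exactly 2 Slc12a1 UMIs were 32.0% of CKD 1 and 7.59% of CKD 2.

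The promoters of 4 genes on which the results turn are shown as the 250 bases before the most upstream transcription start given by RefSeq on GRCm38.p6. Umod is the secreted marker of the segment, Egf is a secreted growth factor gene that fell, and Spp1 and Lcn2 encode secreted proteins that rose. Capitals mark matches, on either strand, to 4 short motifs. The AP-1 motif was TGANTCA. The STAT motif was TTCNNNGAA. The TATA box was TATAAA. A loose NF-kB motif was GGGA and CC with any 4 bases between them.
Umod, chr7:119479263-119479512, minus strand: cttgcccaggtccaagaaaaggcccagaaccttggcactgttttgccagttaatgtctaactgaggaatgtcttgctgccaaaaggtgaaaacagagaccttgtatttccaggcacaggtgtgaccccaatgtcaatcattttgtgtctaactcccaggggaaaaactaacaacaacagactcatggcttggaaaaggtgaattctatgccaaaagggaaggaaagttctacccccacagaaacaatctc
Egf, chr3:129755323-129755572, minus strand: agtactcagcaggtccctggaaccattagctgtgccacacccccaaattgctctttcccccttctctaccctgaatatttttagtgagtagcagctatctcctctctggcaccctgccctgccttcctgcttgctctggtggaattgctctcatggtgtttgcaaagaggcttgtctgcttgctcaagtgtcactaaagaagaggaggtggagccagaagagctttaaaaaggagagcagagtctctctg
Spp1, chr5:104434861-104435110, plus strand: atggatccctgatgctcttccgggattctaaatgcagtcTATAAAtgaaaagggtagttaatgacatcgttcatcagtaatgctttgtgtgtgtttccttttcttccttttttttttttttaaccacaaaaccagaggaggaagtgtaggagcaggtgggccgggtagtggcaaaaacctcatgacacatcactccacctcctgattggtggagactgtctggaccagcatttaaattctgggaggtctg
Lcn2, chr2:32387740-32387989, minus strand: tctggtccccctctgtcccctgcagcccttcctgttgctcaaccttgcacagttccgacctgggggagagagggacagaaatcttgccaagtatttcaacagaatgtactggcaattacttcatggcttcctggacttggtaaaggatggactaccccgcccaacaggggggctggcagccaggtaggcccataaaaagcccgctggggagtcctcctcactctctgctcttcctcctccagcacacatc
The one match was to the letters TATAAA in Spp1, from 211 to 206 bases upstream, and whether they act as a TATA box was not tested. TATAAA was present in 13.0% of 27025 mouse promoters of this length. The windows of Umod, Egf and Lcn2 held none of the 4 motifs, which says only that these letters were not in them.

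Cells that met the rule were a smaller share of every AAI library than of control. They were 9.38% of the kept barcodes in control (95% exact binomial interval 8.79 to 10.00), 1.71% in AKI 1 (1.48 to 1.97), 1.06% in AKI 2 (0.876 to 1.27), 5.34% in CKD 1 (5.03 to 5.66) and 0.831% in CKD 2 (0.658 to 1.03). The CKD libraries lay on either side of the AKI libraries, so the groups overlapped. These intervals cover counting error only. No test of the shares against control was made, and 2 libraries against 2 cannot give an exact two-sided permutation p under 0.333.

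The denominator and the mitochondrial limit both moved the shares. Among barcodes without a Ptprc UMI, which leaves out most leukocytes, the shares were 13.7% in control, 6.20% and 4.26% in AKI and 11.5% and 5.37% in CKD. Control was still highest, and CKD 1 came close to it. Of all barcodes that met the rest of the rule, 63.2% in control, 44.7% and 56.4% in AKI and 31.1% and 53.3% in CKD were over the mitochondrial limit. The shares also rest on the Slc12a1 limits. Of the kept barcodes that passed these limits, 268 of 1242 in control held a Ptprc UMI and were left out. In AKI these were 149 of 356 and 76 of 194, and in CKD 764 of 2014 and 47 of 128. The Slc34a1 limit left out 84 in control, 22 and 8 in AKI, and 330 and 2 in CKD. The part of these losses in the shares was not tested. Fewer cells in the kidney, fewer cells recovered from it and less Slc12a1 per cell cannot be told apart here.

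**Figure D1:**
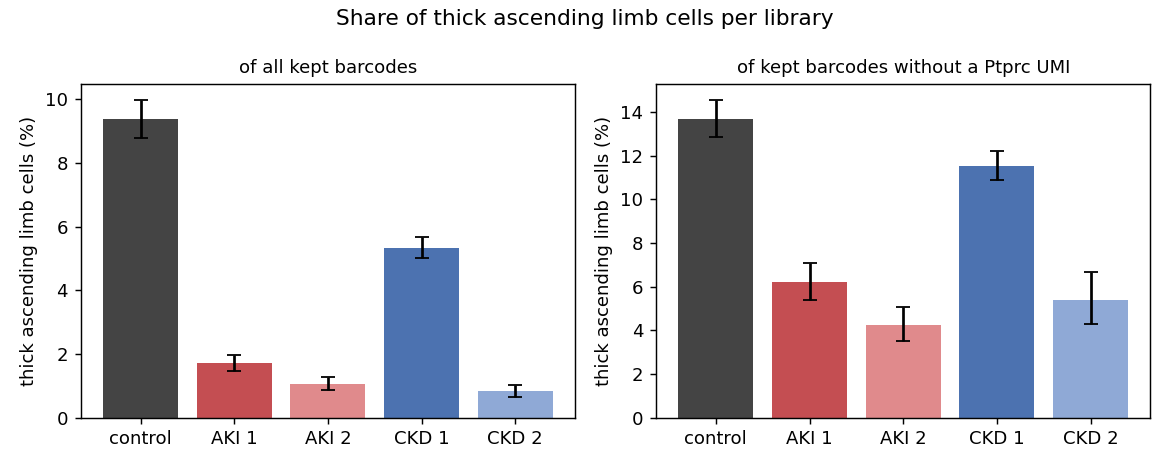
Bars give the percentage of thick ascending limb cells in each library, over all kept barcodes (left) and over kept barcodes without a Ptprc UMI (right), with 95% exact binomial intervals. Control is highest in both panels, at 9.38% and 13.7%, and CKD 1 stands well above CKD 2.

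Expression was compared on UMIs summed over the thick ascending limb cells of each library. Levels are UMIs of a gene per 10000 UMIs of these cells, in the order of the library numbers. Changes are log2 fold changes ± SE with the Benjamini-Hochberg adjusted p of edgeR's quasi-likelihood test over all genes, and a gene is said to have risen or fallen where that p was under 0.05. The single control library was assumed to vary like the AKI and CKD pairs, and the comparisons of AKI and of CKD with control share it. Most genes lay on 1 side of it, with 77.7% in both AKI libraries and 66.6% in both CKD libraries. As a measure of free RNA, the level of the same gene in Ptprc-positive barcodes is given where it matters. In AKI against control, 324 of 11643 genes were called (2.78%), 175 higher (1.5%) and 149 lower (1.28%). In CKD against control 81 were called (0.696%), 54 higher (0.464%) and 27 lower (0.232%). Without the cells in which another cell type outweighed the markers, an alternative chosen after seeing the data, 688 and 486 genes were called. Without CKD 1 the counts were 2099 and 774, and with a mitochondrial limit of 15% they were 12 and 0. Without the 10% of cells with most UMIs 55 and 26 were called. Where the call of a named gene is given below, its loss with DESeq2 or on leaving out 1 library is given beside or after the gene, in most cases with the value there. A left-out library leaves its group with 1 library, assumed to vary like the others.

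Of the proteins the segment secretes, Egf fell, Spp1 rose and Umod kept close to its control level. Umod was at 137 in control, 139.6 and 112 in AKI, and 107 and 119.8 in CKD. Control lay within the range of the AKI libraries, and neither difference passed the test (log2 -0.09 ± 0.37, adjusted p = 0.930 in AKI and log2 -0.22 ± 0.37, adjusted p = 0.836 in CKD). Ptprc-positive barcodes held 1.36 to 11.01.

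Egf, a growth factor for tubule cells, was at 101 in control, 3.71 and 3.67 in AKI, and 7.47 and 6.05 in CKD. Every AAI library lay far below control, whose 95% Poisson interval, which covers counting error only, was 100.2 to 101.9. The gene fell in AKI (log2 -4.75 ± 0.32, adjusted p = 0.000772) and in CKD (log2 -3.84 ± 0.31, adjusted p = 0.00313). In AKI the fall was called under each of 15 alternatives, from -5.12 to -4.39 on the log2 scale, and in CKD under 14 of 15, the exception being the 15% mitochondrial limit. Both CKD libraries lay above both AKI libraries, but that difference did not pass the test (log2 0.93 ± 0.22, adjusted p = 0.362). The median cell held 49.4 Egf UMIs per 10000 in control, 0 in both AKI libraries, 2.17 in CKD 1 and 4.09 in CKD 2. With each cell thinned to 1000 UMIs, Egf was detected in 83.5% of 702 control cells, 28.8% of 153 cells of AKI 1, 17.0% of 100 cells of AKI 2, 29.9% of 1031 cells of CKD 1 and 49.3% of 67 cells of CKD 2. Unthinned, these shares were 92.3%, 40.1%, 39.1%, 53.2% and 73.4%. In thinned Ptprc-positive barcodes they were 34.4% in control and 0.480% to 4.54% in the AAI libraries.

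Spp1, which encodes the secreted matrix protein osteopontin, was at 25.9 in control, 322 and 402 in AKI, and 197 and 296 in CKD. All 4 AAI libraries were far above control, and the gene rose in AKI (log2 3.84 ± 0.53, adjusted p = 0.0121) and in CKD (log2 3.29 ± 0.51, adjusted p = 0.0363). Each call was lost under 4 of 15 alternatives: the 15% mitochondrial limit, and leaving out the 10% of cells with most UMIs, AKI 1 or AKI 2. The largest adjusted p over the alternatives was 0.188 in AKI and 0.257 in CKD in edgeR's test. The log2 fold change stayed between 3.35 and 4.26 in AKI and between 3.03 and 3.77 in CKD. The rise was spread over the cells, with medians of 15.2 UMIs per 10000 in control, 121.7 and 177 in AKI and 92.0 and 59.6 in CKD. Ptprc-positive barcodes held 9.69 to 41.9.

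Of the 7 tested genes of this secreted group, 1 rose and 2 fell in AKI, and 1 rose and 1 fell in CKD, beside 1.5% and 1.28% of all genes in AKI and 0.464% and 0.232% in CKD. The second to fall in AKI was Wfdc15b, of a family of small secreted protease inhibitors, which was at 13.7 in control, 4.48 and 3.64 in AKI, and 5.25 and 4.88 in CKD (AKI log2 -1.73 ± 0.26, adjusted p = 0.0165). Its log2 value ran from -1.93 to -0.559 over 15 alternatives. That call was lost without AKI 1 (log2 -1.88, adjusted p = 0.152) and without AKI 2 (log2 -1.57, adjusted p = 0.175). Its relative Wfdc2 was at 15.1 in control, 34.9 and 35.0 in AKI, and 27.0 and 26.8 in CKD, above control in every AAI library but not past the test. Klk1 (tissue kallikrein) was at 39.2 in control, 18.2 and 22.7 in AKI, and 40.9 and 28.9 in CKD, and Hpn (hepsin, the protease that releases uromodulin) at 0.973 in control, 1.20 and 1.04 in AKI, and 1.11 and 1.37 in CKD. Neither was called. The median log2 fold change of the group was -0.09 in AKI and -0.10 in CKD, beside -0.02 and -0.01 over all genes.

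**Figure D2:**
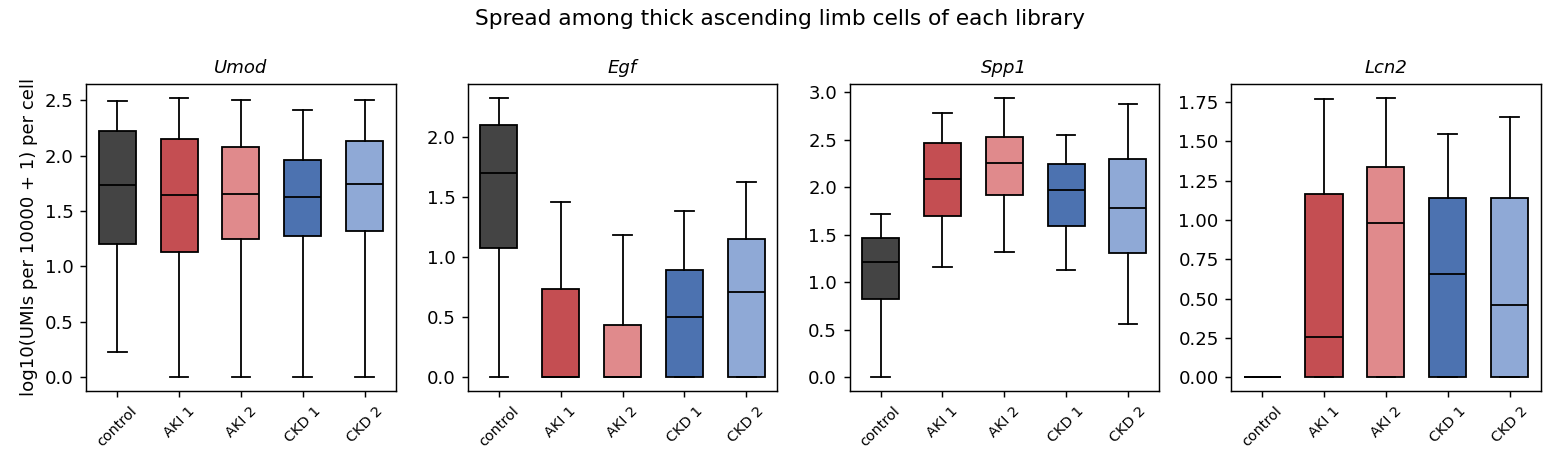
Boxes give the quartiles of log10(UMIs per 10000 + 1) in single thick ascending limb cells of each library for Umod, Egf, Spp1 and Lcn2, with whiskers at the 5th and 95th percentiles. Umod is spread alike in the 5 libraries, the median Egf level is 49.4 UMIs per 10000 in control and at most 4.09 in the AAI libraries, and Spp1 and Lcn2 are raised in the AAI libraries with a wide spread among cells.

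Of 29 tested genes of tubule injury, 15 rose in AKI and none fell, beside 1.5% of all genes that rose. In CKD 6 rose (Lcn2, Fga, Itgb8, Dcdc2a, Clu and Tnfrsf12a) and none fell, beside 0.464%. The median log2 fold change was 1.69 in AKI and 0.99 in CKD, beside -0.02 and -0.01 over all genes.

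Lcn2 encodes the siderophore-binding protein NGAL, a urinary marker of kidney injury. It was at 0.161 in control, 27.1 and 25.3 in AKI, and 14.4 and 23.7 in CKD. The control cells were at the level of the control Ptprc-positive barcodes (0.168), and every AAI library was above its own Ptprc-positive barcodes (0.769 to 3.11). Lcn2 rose in AKI (log2 7.37 ± 0.50, adjusted p = 0.000772) and in CKD (log2 6.92 ± 0.49, adjusted p = 0.00290). The rise was called under all 15 alternatives in AKI, from 6.00 to 7.84 on the log2 scale, and under 14 of 15 in CKD, again lost at the 15% mitochondrial limit. Among cells with at least 5000 UMIs, 3 or more Lcn2 UMIs were found in 7 of 358 in control (1.96%), 74 of 81 in AKI 1 (91.4%), 53 of 57 in AKI 2 (93.0%), 148 of 190 in CKD 1 (77.9%) and 20 of 29 in CKD 2 (69.0%).

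Within CKD, these Lcn2-positive cells were set beside the other cells of at least 5000 UMIs that had no Lcn2 UMI. This is a description with no test. In CKD 1 the 148 positive cells held 309 Spp1 UMIs per 10000 and the 22 cells without Lcn2 held 43.7, and in CKD 2 the 20 positive cells held 379 and the 5 without held 35.5. Clu was at 24.8 against 0.896 in CKD 1 and 35.0 against 0.585 in CKD 2, and Wfdc2 at 40.2 against 7.96 and 33.5 against 8.58. Genes of the uninjured segment were split. Wfdc15b was lower in the positive cells of both libraries, at 4.46 against 18.4 and 3.25 against 11.1, as was Cldn10, at 5.01 against 14.4 and 6.41 against 9.36. Cldn16 was higher in them, at 1.99 against 0.264 and 1.76 against 0.780. Umod was at 154 against 121.7 and 133 against 101, and Egf at 10.0 against 10.4 and 2.38 against 10.7. The positive cells were also deeper, with median UMIs of 11338.5 against 7709.5 in CKD 1 and 19946 against 9980.0 in CKD 2, and Cd74, an antigen-presentation gene of leukocytes, was at 1.21 against 9.01 and 0.297 against 71.2. The part of depth and of leukocyte RNA in these differences was not tested.

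Clu, Tnfrsf12a and Dcdc2a ranked the libraries alike. Clu, the secreted chaperone clusterin, was at 2.01 in control, 28.6 and 61.7 in AKI, and 14.4 and 25.3 in CKD (AKI log2 4.52 ± 0.62, adjusted p = 0.0121, CKD log2 3.33 ± 0.58, adjusted p = 0.0472). Tnfrsf12a, the receptor of the cytokine TWEAK, was at 0.240 in control, 2.14 and 2.29 in AKI, and 0.994 and 1.37 in CKD (AKI log2 3.23 ± 0.30, adjusted p = 0.00233, CKD log2 2.32 ± 0.29, adjusted p = 0.0185). Dcdc2a, a doublecortin-domain gene, was at 0.151 in control, 2.17 and 2.24 in AKI, and 0.832 and 1.41 in CKD (AKI log2 3.89 ± 0.36, adjusted p = 0.00233, CKD log2 2.88 ± 0.35, adjusted p = 0.0181). In all 3 genes each AKI library was above each CKD library, and each CKD library above control. Itgb8, an integrin subunit that activates TGF-beta, was at 0.290 in control, 0.804 and 0.894 in AKI, and 0.740 and 0.986 in CKD (AKI log2 1.57 ± 0.27, adjusted p = 0.0254, CKD log2 1.59 ± 0.27, adjusted p = 0.0472), with the AKI and CKD libraries interleaved. The Itgb8 call was lost in AKI without AKI 1 (log2 1.66, adjusted p = 0.101) and without AKI 2 (log2 1.52, adjusted p = 0.0728) and in CKD without AKI 1 (log2 1.59, adjusted p = 0.109), and the Clu call in CKD without AKI 1 (log2 3.33, adjusted p = 0.0787).

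Krt8 and Krt18, keratins of simple epithelia, rose in AKI and were not called in CKD, and Krt7, another, was not called in AKI (log2 0.53 ± 0.25, adjusted p = 0.332) or CKD. Krt8 was at 2.00 in control, 9.68 and 8.53 in AKI, and 2.83 and 3.53 in CKD (AKI log2 2.21 ± 0.29, adjusted p = 0.0104), and its partner Krt18 at 0.940 in control, 3.75 and 2.60 in AKI, and 1.02 and 1.63 in CKD (AKI log2 1.79 ± 0.34, adjusted p = 0.0351). Sox9, a transcription factor of tubule repair, was at 0.0944 in control, 0.621 and 0.241 in AKI, and 0.374 and 0.397 in CKD (AKI log2 2.27 ± 0.49, adjusted p = 0.0487). Anxa1, Anxa2 and S100a11, which bind calcium and membranes, rose in AKI as well. Anxa1 and Anxa2 are also leukocyte genes, and in CKD the Ptprc-positive barcodes held more of both than the cells did. In AKI the Krt8 call was lost without AKI 1 (log2 2.12, adjusted p = 0.0792), that of Krt18 without AKI 1 (log2 1.51, adjusted p = 0.194) and that of Sox9 without AKI 1 (log2 1.38, adjusted p = 0.282). The Anxa2 call was lost without AKI 1 (log2 2.08, adjusted p = 0.0588) and that of S100a11 without AKI 1 (log2 1.73, adjusted p = 0.179) and without AKI 2 (log2 1.76, adjusted p = 0.101).

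Havcr1, the KIM-1 gene of the injured proximal tubule, had no UMI in control, 25 in the AKI libraries and 25 in the CKD libraries. Its AKI call was lost without AKI 1 (log2 7.98, adjusted p = 0.0864) and without AKI 2 (log2 7.37, adjusted p = 0.0799). Its summed AKI level of 0.0772 UMIs per 10000 was at least 14.99-fold higher than the floor of 3 UMIs in control, and its CKD level of 0.0476 at least 9.25-fold. The Ptprc-positive barcodes held 0.00438 to 0.0747. Vcam1, an adhesion molecule of tubule cells that fail to recover, was at 0.0944 in control, 0.183 and 0.155 in AKI, and 0.239 and 0.0147 in CKD and was not called, and its level was below that of Ptprc-positive barcodes (0.247 to 0.991) in every library.

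**Figure D3:**
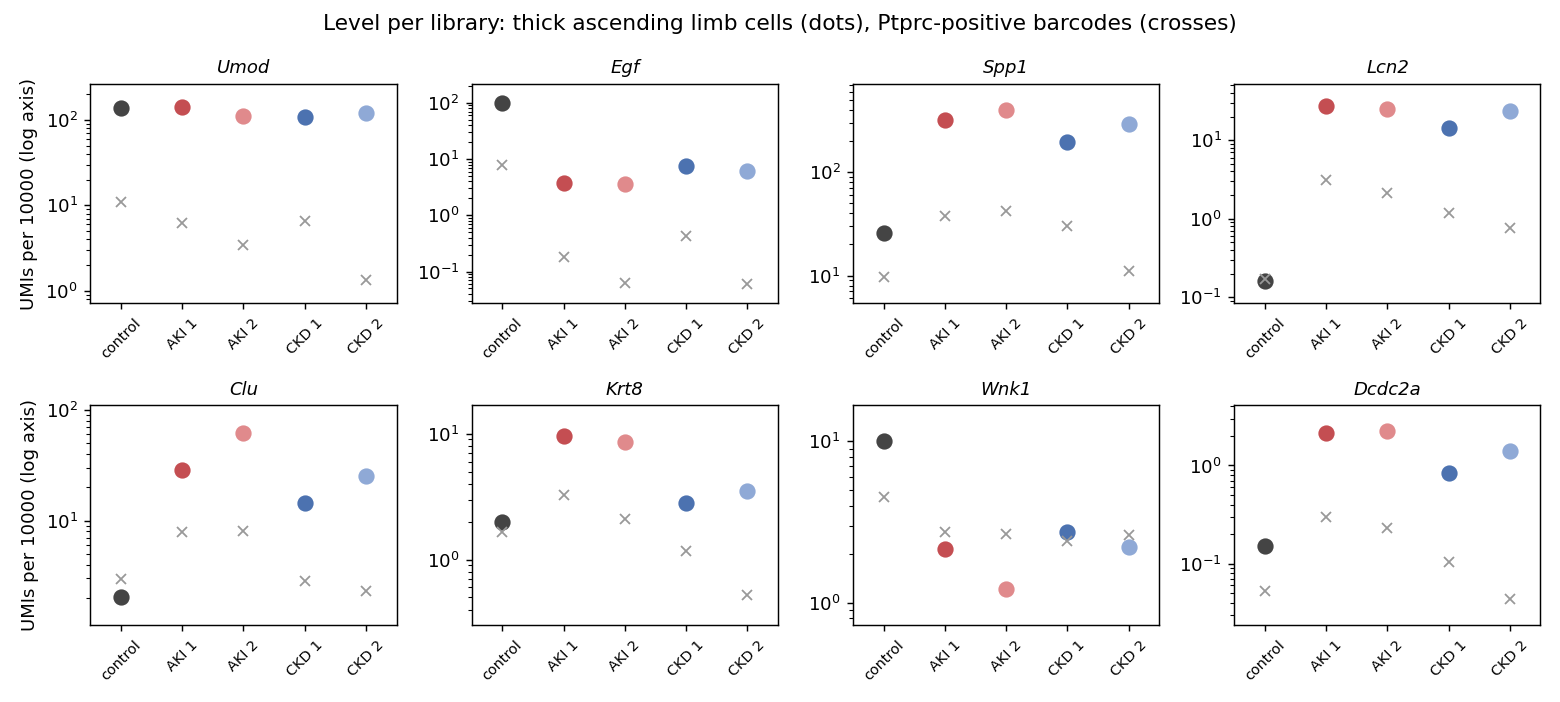
Dots give UMIs per 10000 summed over the thick ascending limb cells of each library on a log axis, and crosses the same in Ptprc-positive barcodes. Umod lies between 107 and 139.6 in all libraries, Egf is at 3.67 to 7.47 in the AAI libraries against 101 in control, and Spp1, Lcn2, Clu and Dcdc2a are higher in every AAI library than in control.

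The largest changes were picked among called genes whose libraries did not overlap between the groups and whose level in the higher group was at least 0.5 UMIs per 10000 and at least 3 times that of the Ptprc-positive barcodes. The 8 largest rises in AKI against control were Fgg, Lcn2, Il1f6, Clca3a2, Serpina10, Samd5, Clu and Hesx1. Fgg, a fibrinogen chain made mainly by the liver, was at 0.00343 in control, 1.17 and 0.705 in AKI, and 0.552 and 0.118 in CKD. The control level rested on 2 UMIs, and the ratio of the summed AKI level to it was 291 (95% counting interval 80.0 to 2416). Fga, another fibrinogen chain, had no UMI in control, 184 in AKI, at least 110.3-fold higher than the floor, and 114 in CKD, at least 42.2-fold higher. Il1f6, the interleukin 36 alpha gene, had 2 UMIs in control and 137 in AKI, a ratio of 123 (33.5 to 1028), and was at 0.0350 and 0 in CKD.

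Serpina10, an inhibitor of clotting factors, was at 0.00858 in control, 0.828 and 0.722 in AKI, and 0.335 and 0.353 in CKD (AKI log2 6.46 ± 0.40, adjusted p = 0.000772). Clca3a2, of a family that regulates chloride channels, was at 0.0103 in control, 1.22 and 1.40 in AKI, and 0.138 and 0.441 in CKD (AKI log2 6.96 ± 0.71, adjusted p = 0.00288). The Clca3a2 call was lost at the 15% mitochondrial limit and without cells with UMIs of other cell types. Its log2 value ran from 2.46 to 10.3 over 15 alternatives. Hesx1, a homeobox gene, was at 0.0240 in control, 0.434 and 0.619 in AKI, and 0.291 and 0.544 in CKD, and Samd5 at 0.0326 in control, 0.592 and 0.920 in AKI, and 0.261 and 0.794 in CKD. In all 4 genes every AAI library was above control. Among the 8 largest rises in CKD against control were Lcn2, Clu, Spp1, Dcdc2a, Tnfrsf12a, Adamts1 and Tmem37. Adamts1, a secreted metalloprotease, was at 0.422 in control, 2.46 and 2.54 in AKI, and 1.43 and 1.46 in CKD (CKD log2 1.83 ± 0.26, adjusted p = 0.0296). Tmem37, a calcium channel subunit, was at 0.214 in control, 0.588 and 0.567 in AKI, and 0.635 and 0.647 in CKD (CKD log2 1.64 ± 0.26, adjusted p = 0.0379). Of these 7 genes, Tmem37 alone had both CKD libraries above both AKI libraries. The Adamts1 call was lost without AKI 1 (log2 1.82, adjusted p = 0.0787) and that of Tmem37 without AKI 1 (log2 1.63, adjusted p = 0.0932).

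The 8 largest falls in AKI were Egf, Col5a2, Robo2, Lpl, 1110019B22Rik, Gm47708, Slc9a2 and Inpp5j. Col5a2, a fibrillar collagen chain, was at 2.37 in control, 0.318 and 0.163 in AKI, and 0.296 and 0.250 in CKD (AKI log2 -3.21 ± 0.33, adjusted p = 0.00288, CKD log2 -3.00 ± 0.32, adjusted p = 0.0118). Lpl, the lipoprotein lipase gene, was at 3.79 in control, 0.462 and 0.516 in AKI, and 1.71 and 1.29 in CKD (AKI log2 -2.93 ± 0.27, adjusted p = 0.00233). For Lpl the CKD libraries stood between AKI and control. Slc9a2, a sodium-proton exchanger, was at 0.638 in control, 0.140 and 0.146 in AKI, and 0.186 and 0.147 in CKD (AKI log2 -2.13 ± 0.29, adjusted p = 0.0110, CKD log2 -1.79 ± 0.28, adjusted p = 0.0363). Inpp5j, an inositol phosphatase, was at 0.659 in control, 0.173 and 0.112 in AKI, and 0.230 and 0.250 in CKD (AKI log2 -2.13 ± 0.29, adjusted p = 0.0121). In CKD the rule named 8 falls, Egf, Col5a2, 1110019B22Rik, Fam107a, Nsg2, Gm47708, Slc9a2 and Stk32b, and Fam107a, an actin-associated protein, was at 0.565 in control, 0.144 and 0.129 in AKI, and 0.0832 and 0.162 in CKD (CKD log2 -2.38 ± 0.34, adjusted p = 0.0312). The Fam107a call was lost with DESeq2 (log2 -2.24, adjusted p = 0.0942), that of Nsg2 with DESeq2 (log2 -1.95, adjusted p = 0.214) and without AKI 1 (log2 -2.06, adjusted p = 0.0678) and that of Stk32b with DESeq2 (log2 -1.69, adjusted p = 0.210) and without AKI 1 (log2 -1.72, adjusted p = 0.0678). For Slc9a2 the call was lost in AKI with DESeq2 (log2 -2.11, adjusted p = 0.0508) and without AKI 1 (log2 -2.09, adjusted p = 0.0774) and in CKD with DESeq2 (log2 -1.80, adjusted p = 0.195) and without AKI 1 (log2 -1.81, adjusted p = 0.0598).

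Of 22 tested genes of salt transport and its control, 5 fell in AKI and none rose, beside 1.28% of all genes that fell. In CKD 1 fell, beside 0.232%. The median log2 fold change was -0.61 in AKI and -0.51 in CKD. Bsnd (barttin), an accessory protein of chloride exit, was at 1.12 in control, 0.395 and 0.138 in AKI, and 0.416 and 0.441 in CKD (AKI log2 -1.96 ± 0.41, adjusted p = 0.0433). Both receptors called were lower as well. Casr, the calcium-sensing receptor, was at 0.934 in control, 0.332 and 0.335 in AKI, and 0.401 and 0.368 in CKD (AKI log2 -1.45 ± 0.24, adjusted p = 0.0216), and Gcgr, the glucagon receptor, at 1.07 in control, 0.308 and 0.275 in AKI, and 0.453 and 0.603 in CKD (AKI log2 -1.84 ± 0.25, adjusted p = 0.0113). Across 15 alternatives the AKI log2 values ran from -2.99 to -1.27 for Bsnd, -1.65 to -0.743 for Casr and -1.94 to -1.43 for Gcgr. For these 3 genes control was above every AAI library, and the CKD differences did not pass the test. The Bsnd call was lost without AKI 2 (log2 -1.46, adjusted p = 0.0837) and that of Gcgr without AKI 1 (log2 -1.93, adjusted p = 0.0713). Casr lost its call with DESeq2 (log2 -1.44, adjusted p = 0.124), without AKI 1 (log2 -1.44, adjusted p = 0.171) and without AKI 2 (log2 -1.44, adjusted p = 0.0924).

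Wnk1, a kinase that regulates chloride cotransporters and is also a marker of the distal convoluted tubule, fell in both. It was at 10.0 in control, 2.16 and 1.21 in AKI, and 2.76 and 2.22 in CKD (AKI log2 -2.53 ± 0.34, adjusted p = 0.0113, CKD log2 -1.94 ± 0.34, adjusted p = 0.0477). Ptprc-positive barcodes held 4.52 in control and 2.42 to 2.75 in the AAI libraries, more than the cells in AKI 1, AKI 2 and CKD 2. The CKD call was lost without AKI 1 (log2 -1.95, adjusted p = 0.0702). Other parts of the transport machinery were not called. The potassium channel Kcnj1 was at 4.43 in control, 2.84 and 2.29 in AKI, and 2.62 and 3.13 in CKD, lower in each AAI library than in control, and Atp1b1, the beta subunit of the sodium pump, at 42.8 in control, 43.8 and 41.6 in AKI, and 39.6 and 42.6 in CKD. The sodium-proton exchanger Slc9a3, the potassium channel Kcnj16 and the parathyroid hormone receptor Pth1r had log2 differences from -0.13 to -0.05 in AKI and from -0.11 to -0.04 in CKD.

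The tight junction genes Cldn10, Cldn16 and Cldn19 were above control in every AAI library without passing the test. Of all genes, 77.7% had both AKI libraries on 1 side of control and 66.6% both CKD libraries. Cldn10 was at 4.46 in control, 7.85 and 7.52 in AKI, and 4.92 and 6.36 in CKD, Cldn16 at 1.00 in control, 1.37 and 1.29 in AKI, and 1.26 and 1.49 in CKD and Cldn19 at 1.35 in control, 3.53 and 2.37 in AKI, and 2.07 and 2.77 in CKD. Of the 8 cortical genes 2 fell in AKI and none in CKD, beside 1.28% and 0.232% of all genes. The potassium channel Kcnj10 was at 0.889 in control, 0.342 and 0.378 in AKI, and 0.427 and 0.427 in CKD (AKI log2 -1.28 ± 0.24, adjusted p = 0.0328), and Tmem52b, a membrane protein of unclear role, at 5.10 in control, 1.84 and 0.971 in AKI, and 2.29 and 1.57 in CKD (AKI log2 -1.81 ± 0.38, adjusted p = 0.0433). Their log2 values over 15 alternatives ran from -2.02 to -0.503 for Kcnj10 and from -2.36 to -1.22 for Tmem52b. The Kcnj10 call was lost with DESeq2 (log2 -1.26, adjusted p = 0.232), without AKI 1 (log2 -1.20, adjusted p = 0.286) and without AKI 2 (log2 -1.33, adjusted p = 0.136), and that of Tmem52b without AKI 1 (log2 -2.36, adjusted p = 0.0634) and without AKI 2 (log2 -1.42, adjusted p = 0.180). No gene of the medullary list was called.

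Among 16 tested genes of the mineralocorticoid response and calcium handling, Kl and Slc8a1 fell in both comparisons and none rose, beside 1.28% of all genes that fell in AKI and 0.232% in CKD. Kl (klotho, a coreceptor for the hormone FGF23) was at 3.33 in control, 0.530 and 0.576 in AKI, and 0.839 and 0.427 in CKD (AKI log2 -2.57 ± 0.35, adjusted p = 0.0113, CKD log2 -2.23 ± 0.34, adjusted p = 0.0363). Slc8a1, a sodium-calcium exchanger, was at 1.02 in control, 0.125 and 0.180 in AKI, and 0.285 and 0.147 in CKD (AKI log2 -2.75 ± 0.36, adjusted p = 0.0104, CKD log2 -1.99 ± 0.34, adjusted p = 0.0472). Both are genes of the distal convoluted tubule too, and in control the Ptprc-positive barcodes held 2.78 of Kl and 3.00 of Slc8a1. The 3 distal convoluted tubule markers other than Wnk1 and Slc8a1 summed to 2.11 in control, 0.260 and 0.550 in AKI and 0.585 and 0.147 in CKD, and their part in these falls was not tested. In AKI the Kl call was lost without AKI 1 (log2 -2.50, adjusted p = 0.0675) and that of Slc8a1 without AKI 1 (log2 -2.46, adjusted p = 0.0634), and in CKD that of Slc8a1 with DESeq2 (log2 -2.04, adjusted p = 0.0654) and without AKI 1 (log2 -2.03, adjusted p = 0.0575).

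Of 17 transcription factors of the segment, 1 rose in AKI, beside 1.5% of all genes, and none fell in either comparison. Elf3, an epithelial factor induced in inflammation, was at 0.393 in control, 0.910 and 0.894 in AKI, and 0.418 and 0.530 in CKD (AKI log2 1.23 ± 0.25, adjusted p = 0.0418). Its log2 value ran from 0.707 to 1.72 over 15 alternatives. Its call was lost with DESeq2 (log2 1.25, adjusted p = 0.147), without AKI 1 (log2 1.22, adjusted p = 0.254) and without AKI 2 (log2 1.26, adjusted p = 0.160). Ppargc1a, which drives mitochondrial gene expression, was at 2.64 in control, 1.31 and 1.25 in AKI, and 1.05 and 1.44 in CKD, below control in each AAI library without passing the test (adjusted p = 0.0688 in AKI and 0.0904 in CKD). Tfap2b, Pou3f3, Irx1 and Irx2 were likewise below control in each AAI library and not called. Of the 17 genes, 10 were below control and 4 above it in both AKI libraries. In both CKD libraries 11 were below and 1 above. Of all genes, 77.7% had both AKI libraries and 66.6% both CKD libraries on 1 side of control. The median log2 fold change of the list was -0.66 in AKI and -0.80 in CKD.

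Of 21 tested chemokine and cytokine genes, 5 rose in AKI and 2 in CKD, and none fell, beside 1.5% and 0.464% of all genes that rose. Il34, a ligand of the macrophage receptor Csf1r, was at 0.0738 in control, 0.636 and 0.748 in AKI, and 0.355 and 0.618 in CKD (AKI log2 3.24 ± 0.37, adjusted p = 0.00553, CKD log2 2.66 ± 0.37, adjusted p = 0.0296). Its level was above that of the Ptprc-positive barcodes in every library. Cxcl1, a chemokine for neutrophils, was at 0.0532 in control, 0.535 and 0.438 in AKI, and 0.458 and 0.235 in CKD (AKI log2 3.22 ± 0.45, adjusted p = 0.0122, CKD log2 2.90 ± 0.44, adjusted p = 0.0363), but Ptprc-positive barcodes held more in every library (0.146 to 1.03). Cxcl16, Ccl7 and Lif were the others that rose in AKI. Cxcl16 and Ccl7 were also lower in the cells than in the Ptprc-positive barcodes of every library. Lif, a cytokine of the interleukin 6 family, had 2 UMIs in control and 41 in AKI, a ratio of 36.9 (9.58 to 315). Its call was lost without AKI 2 (log2 4.47, adjusted p = 0.152), and that of Cxcl16 without AKI 1 (log2 2.08, adjusted p = 0.0516). Across the whole comparison, 57 of the 324 genes called in AKI and 35 of the 81 called in CKD were below the Ptprc-positive level in the group where they were higher, so such a gene cannot be placed in the thick ascending limb from these data alone.

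AAI forms DNA adducts, and targets of p53 were examined. Of 22 tested, Phlda3, Bbc3 and Cdkn1a rose in AKI, Phlda3 and Cdkn1a rose in CKD, and none fell, beside 1.5% and 0.464% of all genes that rose. Phlda3, a repressor of Akt signalling, was at 0.0292 in control, 0.592 and 0.584 in AKI, and 0.488 and 0.441 in CKD (AKI log2 4.34 ± 0.34, adjusted p = 0.00107, CKD log2 4.06 ± 0.34, adjusted p = 0.00313). The cell cycle inhibitor Cdkn1a (p21) was at 0.263 in control, 3.28 and 2.38 in AKI, and 2.74 and 1.57 in CKD (AKI log2 3.46 ± 0.45, adjusted p = 0.0104, CKD log2 3.14 ± 0.44, adjusted p = 0.0296). The apoptosis gene Bbc3 (PUMA) was at 0.0772 in control, 0.284 and 0.344 in AKI, and 0.271 and 0.235 in CKD (AKI log2 2.03 ± 0.34, adjusted p = 0.0216). For these genes the CKD libraries stood near the AKI libraries, and Ptprc-positive barcodes held 0.908 to 3.14 of Cdkn1a and 0.0411 to 0.456 of Phlda3. The median of the list was 0.79 in AKI and 1.12 in CKD on the log2 scale. In the senescence list Cdkn2b, another cell cycle inhibitor, also rose in AKI, at 0.0498 in control, 0.265 and 0.163 in AKI, and 0.0876 and 0.118 in CKD. The Bbc3 call was lost with DESeq2 (log2 2.07, adjusted p = 0.0697) and without AKI 1 (log2 2.18, adjusted p = 0.0711) and that of Cdkn2b with DESeq2 (log2 2.17, adjusted p = 0.251) and without AKI 1 (log2 1.74, adjusted p = 0.432).

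None of 74 nuclear genes of the respiratory chain was called in AKI or CKD, and 62 of them were below control in both AKI libraries and 62 in both CKD libraries, with medians of -0.27 and -0.20 on the log2 scale. Of all genes, 77.7% had both AKI libraries on 1 side of control and 66.6% had both CKD libraries there. The mitochondrially encoded genes entered the rule through the mitochondrial limit, so no differences are given for them. Ribosomal protein genes stood on the other side of control. All 46 were above control in each AAI library and none was called, with medians of 0.60 in AKI and 0.70 in CKD. Of 17 glycolysis genes, Hk2 (hexokinase 2) rose (log2 4.35 ± 0.82, adjusted p = 0.0335) and Pfkm (phosphofructokinase) fell (log2 -1.63 ± 0.34, adjusted p = 0.0433) in AKI and none was called in CKD, beside 1.5% of all genes that rose and 1.28% that fell in AKI, and of 23 genes of fatty acid oxidation none was called. The Hk2 call was lost without AKI 2 (log2 3.31, adjusted p = 0.0546), and the Pfkm call with DESeq2 (log2 -1.61, adjusted p = 0.430), without AKI 1 (log2 -1.60, adjusted p = 0.272) and without AKI 2 (log2 -1.62, adjusted p = 0.116).

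Of 20 immediate early genes, Myc rose in both comparisons and Fosl2 in AKI, beside 1.5% of all genes that rose in AKI and 0.464% in CKD. Myc was at 0.0686 in control, 0.405 and 0.413 in AKI, and 0.223 and 0.338 in CKD (AKI log2 2.59 ± 0.34, adjusted p = 0.0104, CKD log2 1.98 ± 0.34, adjusted p = 0.0472), below the Ptprc-positive barcodes (0.401 to 0.501). The Fosl2 call was lost without AKI 1 (log2 1.70, adjusted p = 0.153) and the Myc call in CKD with DESeq2 (log2 2.07, adjusted p = 0.0727) and without AKI 1 (log2 2.00, adjusted p = 0.0932). Fos, which is induced by dissociation, was at 19.1 in control, 27.1 and 22.5 in AKI, and 17.6 and 26.7 in CKD and was not called. No gene was called among 14 heat shock genes, 20 genes of endoplasmic reticulum stress, 19 genes of metallothionein and Nrf2 responses or 31 interferon genes in either comparison. Of 6 genes of MHC class II, H2-DMa rose in CKD, from 0.0995 in control to 0.556 and 0.368, but Ptprc-positive barcodes held 1.49 to 2.57. The T lymphocyte gene Lck, whose call was lost without AKI 1 (log2 3.27, adjusted p = 0.0678) and without CKD 1 (log2 2.47, adjusted p = 0.0542), rose in CKD in the same way, at 0.0240 in control, 0.0867 and 0.103 in AKI, and 0.280 and 0.132 in CKD, against 0.793 to 2.06 in Ptprc-positive barcodes.

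**Figure D4:**
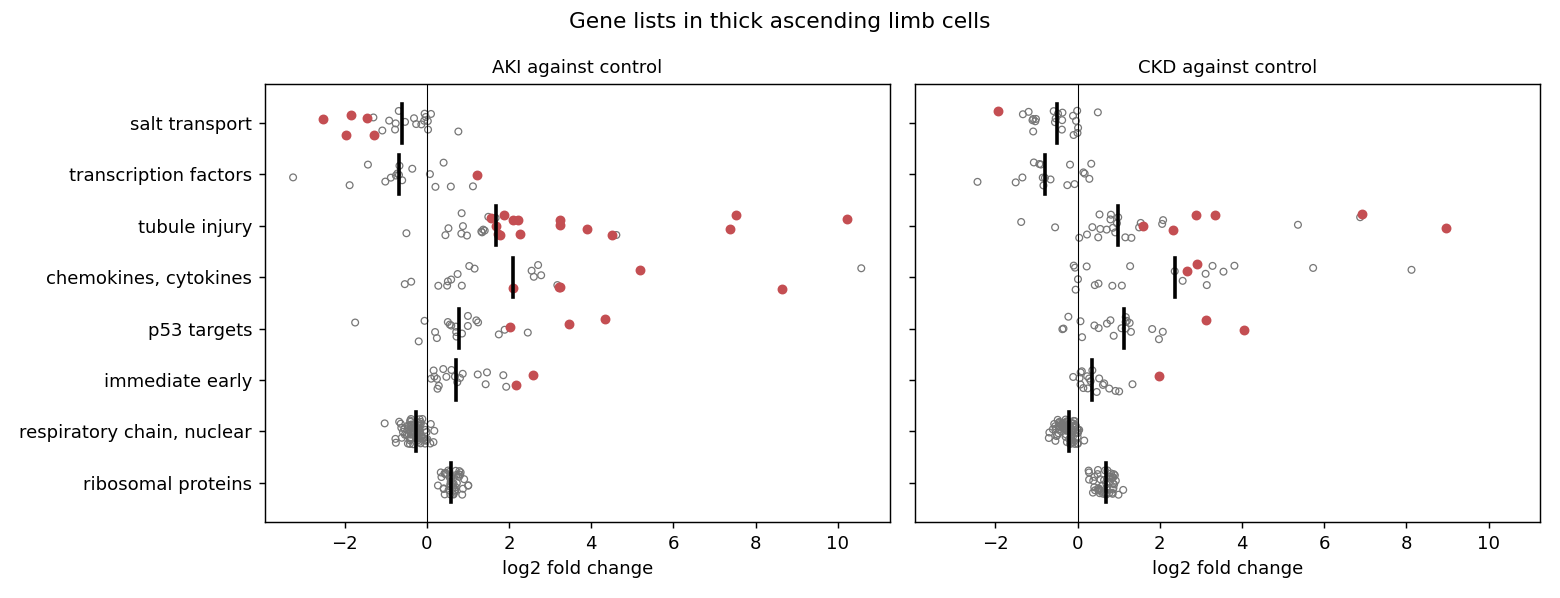
Each point is the log2 fold change of 1 tested gene in AKI against control or CKD against control, for 8 gene lists, with filled red points for adjusted p under 0.05 in edgeR's test and a black bar at the median of the list. The tubule injury list has medians of 1.69 and 0.99, the ribosomal list sits above 0 throughout without a called gene, and the salt transport list has medians of -0.61 and -0.51.

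The promoters of the genes called in AKI were searched for the same 4 motifs, as a description with no test. The AP-1 motif was present in 15 of 130 matched promoters of the higher genes (11.5%), 2 of 110 of the lower genes (1.82%) and 3.88% of 9164 tested genes. NF-kB letters were in 28.5% of the higher, 21.8% of the lower and 22.7% of the tested genes. In the same order the STAT motif was in 6.15%, 3.64% and 5.76%, and the TATA box in 10.0%, 12.7% and 6.34%.

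CKD and AKI were compared directly on the 4 AAI libraries. Of 9840 genes 6 were called (0.061%), 2 higher (0.0203%) and 4 lower (0.0407%) in CKD, and 709 had an unadjusted p under 0.05 in edgeR's test. The 4 lower genes had all risen in AKI over control. Nupr1, a stress-induced regulator of transcription, was at 0.376 in control, 5.89 and 5.86 in AKI, and 1.16 and 1.10 in CKD (log2 -2.32 ± 0.20, adjusted p = 0.0265). Sfn, the cell cycle protein 14-3-3 sigma, was at 0.643 in control, 4.30 and 3.57 in AKI, and 1.04 and 1.15 in CKD (log2 -1.81 ± 0.20, adjusted p = 0.0328). Gprc5a, an orphan receptor induced by retinoic acid, was at 0.144 in control, 0.698 and 0.507 in AKI, and 0.0963 and 0.118 in CKD (log2 -2.51 ± 0.28, adjusted p = 0.0328). The keratin Krt19 was at 0.189 in control, 0.617 and 0.576 in AKI, and 0.0788 and 0.0294 in CKD (log2 -3.04 ± 0.33, adjusted p = 0.0328).

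For Sfn, Gprc5a and Krt19 the CKD levels did not differ from control by the test (adjusted p = 0.196, 0.612 and 0.139), whereas Nupr1 was still higher than control (log2 1.65 ± 0.27, adjusted p = 0.0442), a call lost without AKI 1 (log2 1.64, adjusted p = 0.114). The Gprc5a rise in AKI (log2 2.10 ± 0.31, adjusted p = 0.0158) lost its call without AKI 1 (log2 1.85, adjusted p = 0.112). The Krt19 rise in AKI ended when cells with UMIs of other cell types were left out (log2 -0.019), and its call was also lost with DESeq2 (log2 1.71, adjusted p = 0.178), without AKI 1 (log2 1.64, adjusted p = 0.244) and without AKI 2 (log2 1.75, adjusted p = 0.0622). Leaving out AKI 1 gave 0 called genes in CKD against AKI, and leaving out AKI 2 gave 1, and all 6 genes lost their call both ways. Without AKI 1 and without AKI 2 in turn the log2 differences were -2.34 and -2.34 for Nupr1, -1.68 and -1.94 for Sfn, -2.25 and -2.71 for Gprc5a and -3.06 and -3.14 for Krt19 (adjusted p from 0.385 to 0.466 without AKI 1 and from 0.0917 to 0.176 without AKI 2). The 2 higher genes were Ccl17, a chemokine of dendritic cells, at 0.00343 in control, 0.0241 and 0.0516 in AKI, and 0.650 and 0.382 in CKD, and Ccr7, a chemokine receptor of leukocytes, at 0.0704 in control, 0.0289 and 0.0258 in AKI, and 0.390 and 0.265 in CKD. Without AKI 1 and without AKI 2 their log2 differences were 3.42 and 4.51 for Ccl17 (adjusted p = 0.385 and 0.0917) and 3.74 and 3.58 for Ccr7 (0.385 and 0.127). For both the mean level in CKD was below that of the Ptprc-positive barcodes. Umod (log2 -0.11 ± 0.35, adjusted p = 1.00), Spp1 (log2 -0.52 ± 0.45, adjusted p = 0.939) and Lcn2 (log2 -0.43 ± 0.29, adjusted p = 0.892) were not called between CKD and AKI.

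The cells were not uniform. Along the thick ascending limb, Cldn16 marks cells of the divalent cation path and Cldn10 cells of the sodium path. Cells with at least 2 UMIs of 1 claudin and none of the other were compared within the 3 libraries that had at least 20 of each, namely control (81 Cldn16 and 125 Cldn10 cells), AKI 1 (21 and 29) and CKD 1 (48 and 161). AKI 2 (6 and 23) and CKD 2 (6 and 12) were left out. UMIs of both claudins were found together in 14.8% of the cells in control, 22.4% and 28.7% in AKI and 11.7% and 22.8% in CKD. The product of the shares with each claudin was lower in every library, at 10.7%, 16.2% and 21.1%, and 9.85% and 18.1%. With the cells thinned as for Egf, the product was lower in control but in none of the AAI libraries. Of 702 thinned control cells, 12 held both claudins, 153 Cldn10 alone and 36 Cldn16 alone. AKI 1 had 3, 43 and 18 of 153, and AKI 2 had 6, 34 and 9 of 100. CKD 1 had 16, 238 and 68 of 1031, and CKD 2 had 2, 16 and 6 of 67. The part of depth in the unthinned shares was not tested. Of 7619 genes 320 were called between the classes (4.2%), 104 higher (1.37%) and 216 lower (2.84%) in Cldn16 cells. The Cldn16 cells were deeper, with median UMIs of 12573 against 6844 in control, 15804 against 12010.0 in AKI 1 and 9225 against 3296 in CKD 1. Among cells with at least 5000 UMIs, an alternative added after seeing the data, 187 genes were called. Leaving out CKD 1 gave 160 and leaving out control 184.

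Of 6 tested genes of the cortical list, Kcnj10, Tmem52b and Enox1 were higher in Cldn16 cells and Kcnt1 was lower, beside 1.37% and 2.84% of all genes. Kcnt1, a sodium-activated potassium channel, was at 0.0277, 0 and 0 in the Cldn16 cells and 0.163, 0.0478 and 0.210 in the Cldn10 cells (log2 -3.09 ± 0.81, adjusted p = 0.0455), in control, AKI 1 and CKD 1 in turn. DESeq2 gave no adjusted p for it, and it was under the filter on low counts without control and without CKD 1. Enox1 was at 0.712, 0.526 and 0.444 in the Cldn16 cells and 0.200, 0 and 0.0817 in the Cldn10 cells (log2 2.45 ± 0.39, adjusted p = 0.00172). Tmem52b was at 12.4, 7.74 and 8.06 in the Cldn16 cells and 0.917, 0.143 and 0.561 in the Cldn10 cells (log2 4.26 ± 0.28, adjusted p = 8.66e-07). The basolateral potassium channel Kcnj10 was at 2.09, 0.935 and 1.24 in the Cldn16 cells and 0.318, 0.167 and 0.210 in the Cldn10 cells (log2 2.73 ± 0.24, adjusted p = 1.5e-05), and the parathyroid hormone receptor Pth1r, of the salt transport list, at 8.49, 10.5 and 9.39 in the Cldn16 cells and 2.38, 1.15 and 1.89 in the Cldn10 cells (log2 2.50 ± 0.23, adjusted p = 2.09e-05). The classes did not overlap in Tmem52b, Kcnj10 or Pth1r. Foxq1 and Zfp503, which encode transcription factors, Col5a2, and Car15, a carbonic anhydrase, were the others of the 6 largest differences in this direction, with log2 values of 3.24, 2.61, 2.94 and 2.67. Of 22 salt transport genes, 6 were higher in Cldn16 cells (among them Wnk1, Pth1r, Kcnj16, Slc9a3 and Casr) and 1 lower (Ptger3), beside 1.37% and 2.84% of all genes. The Casr call was lost with DESeq2 (log2 1.12, adjusted p = 0.310), without AKI 1 (log2 0.81, adjusted p = 0.0604), without CKD 1 (log2 1.16, adjusted p = 0.0994) and without control (log2 1.14, adjusted p = 0.183), and the Car15 call with DESeq2 (log2 2.79, adjusted p = 0.0607).

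Of 7 tested genes of the secreted group, 4 were higher in Cldn16 cells and none was lower, beside 1.37% of all genes that were higher. Klk1 was at 49.1, 25.1 and 90.2 in the Cldn16 cells and 32.8, 3.32 and 21.6 in the Cldn10 cells (log2 1.93 ± 0.31, adjusted p = 0.00172), and Wfdc2 at 20.7, 36.2 and 54.6 in the Cldn16 cells and 11.3, 33.3 and 16.3 in the Cldn10 cells (log2 1.02 ± 0.23, adjusted p = 0.0194). The Klk1 call was lost with DESeq2 alone of 8 alternatives, and the Wfdc2 call under 3 of 8, among them without control and without CKD 1. Umod was at 178, 174 and 172 in the Cldn16 cells and 137, 90.4 and 132 in the Cldn10 cells (log2 0.67 ± 0.16, adjusted p = 0.0298), and Egf at 156, 9.70 and 13.0 in the Cldn16 cells and 73.2, 0.884 and 9.26 in the Cldn10 cells (log2 1.61 ± 0.37, adjusted p = 0.0230). Each of these 2 calls was lost under 4 of 8 alternatives, among them DESeq2 (largest adjusted p 0.245 for Umod and 0.516 for Egf). Spp1 was not called between the classes (log2 0.46 ± 0.16, adjusted p = 0.154). In both classes Egf was lower in AKI 1 and CKD 1 than in control. Cldn19 did not differ between the classes by the test (log2 -0.04 ± 0.23, adjusted p = 0.971).

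The 6 largest differences toward Cldn10 cells were Nos1, Psca, Ptgds, Eprn, Ptger3 and Irx2. Ptger3, a prostaglandin E2 receptor, was at 0.0832, 0.205 and 0.333 in the Cldn16 cells and 3.59, 1.51 and 3.22 in the Cldn10 cells (log2 -3.90 ± 0.36, adjusted p = 2.09e-05), and the homeobox gene Irx2 at 0.102, 0.263 and 0.0666 in the Cldn16 cells and 2.39, 1.15 and 0.899 in the Cldn10 cells (log2 -3.53 ± 0.37, adjusted p = 6.66e-05). Its neighbour Irx1 was lower in Cldn16 cells as well (log2 -3.43 ± 0.40, adjusted p = 0.000155), while Irx3 was higher (log2 1.34 ± 0.36, adjusted p = 0.0485), a call lost with DESeq2 (log2 1.24, adjusted p = 0.372) and without control (log2 0.52, adjusted p = 0.604). Nccrp1, of the medullary list, was at 0.139, 0.0292 and 0.0222 in the Cldn16 cells and 0.926, 0.956 and 0.490 in the Cldn10 cells (log2 -3.13 ± 0.36, adjusted p = 0.000143). Psca, a surface antigen of epithelia, had 1 UMI in the Cldn16 cells and 290 in the Cldn10 cells, a ratio of 229 (40.7 to 9068), and its Cldn10 level was highest in AKI 1 (0, 0.0292 and 0 in the Cldn16 cells and 1.22, 3.68 and 0.0234 in the Cldn10 cells). Nos1, the macula densa gene, had no UMI in Cldn16 cells and 211 in Cldn10 cells, at least 55.5-fold higher. The Nos1 call was lost with DESeq2 (log2 -6.83, adjusted p = 0.495) and that of Ptgds with DESeq2 (log2 -6.20, adjusted p = 0.0510). Markers of other cells moved with the classes. Of 7 tested endothelial markers 6 were lower in Cldn16 cells, as were 5 of 13 heat shock, 8 of 18 immediate early and 5 of 11 MHC class I genes, beside 2.84% of all genes, and their part in the calls was not tested.

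**Figure D5:**
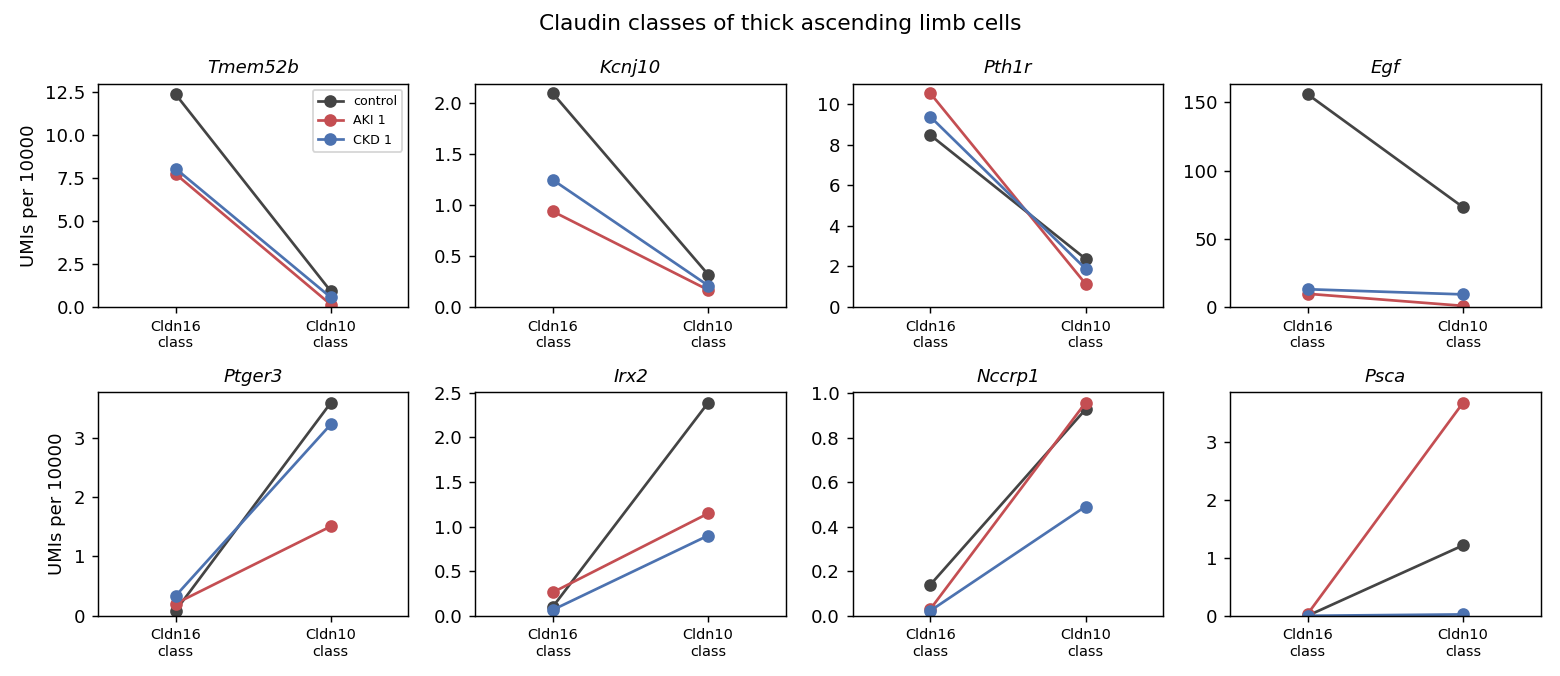
Levels in UMIs per 10000 of 8 genes in the Cldn16 and Cldn10 cells of control, AKI 1 and CKD 1. Tmem52b, Kcnj10 and Pth1r are higher in the Cldn16 cells of each library and Ptger3, Irx2 and Nccrp1 in the Cldn10 cells, while Egf is lower in AKI 1 and CKD 1 than in control in both classes.

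Cells with a Nos1 or Pappa2 UMI, both genes of the macula densa, were 51 of the control cells (5.93%, 95% exact binomial interval 4.45 to 7.72), 11 in AKI 1 (5.73%, 2.89 to 10.02), 8 in AKI 2 (6.96%, 3.05 to 13.2), 21 in CKD 1 (2.04%, 1.27 to 3.10) and 1 in CKD 2 (1.27%, 0.0320 to 6.85). Ptprc-positive barcodes with such a UMI were 0.162% to 0.450%. Nos1, which makes nitric oxide, was at 0.930 in control, 0.0915 and 0.301 in AKI, and 0.180 and 0.382 in CKD, and Pappa2, a protease of this site, at 0.911 in control, 1.05 and 0.344 in AKI, and 0.153 and 0.294 in CKD, and neither was called. In AKI 1, 11 cells gave 19 Nos1 and 219 Pappa2 UMIs, whereas in control 51 cells gave 542 and 531. Of 8 tested macula densa genes, Ptgs2, Avpr1a and Robo2 fell in AKI and Ptges rose, beside 1.28% of all genes that fell and 1.5% that rose, and Avpr1a fell in CKD, beside 0.232%. Ptgs2, the cyclooxygenase of prostaglandin synthesis, was at 0.390 in control, 0.0723 and 0.0774 in AKI, and 0.252 and 0.132 in CKD (AKI log2 -2.35 ± 0.40, adjusted p = 0.0254), and Ptges, the next enzyme of that path, at 0.199 in control, 0.554 and 0.559 in AKI, and 0.381 and 0.456 in CKD (AKI log2 1.51 ± 0.26, adjusted p = 0.0262). Over 15 alternatives the log2 values ran from -3.11 to -0.449 for Ptgs2 and from 0.579 to 2.40 for Ptges. The Ptgs2 call was lost with DESeq2 (log2 -2.34, adjusted p = 0.105) and without AKI 1 (log2 -2.29, adjusted p = 0.136), and also without a mitochondrial limit and without cells with UMIs of other cell types. For Ptges it was lost with DESeq2 (log2 1.53, adjusted p = 0.0963), without AKI 1 (log2 1.52, adjusted p = 0.135) and without AKI 2 (log2 1.52, adjusted p = 0.0677), and for Robo2 without AKI 1 (log2 -3.09, adjusted p = 0.0648). Avpr1a, a vasopressin receptor, was at 0.278 in control, 0.0385 and 0.0258 in AKI, and 0.0438 and 0.0588 in CKD (AKI log2 -3.01 ± 0.45, adjusted p = 0.0161, CKD log2 -2.47 ± 0.42, adjusted p = 0.0472), close to the Ptprc-positive barcodes (0.0155 to 0.297). Its call was lost in AKI with DESeq2 (log2 -3.03, adjusted p = 0.138) and without AKI 1 (log2 -3.37, adjusted p = 0.0821) and in CKD with DESeq2 (log2 -2.40, adjusted p = 0.449) and without AKI 1 (log2 -2.46, adjusted p = 0.0876).

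The change from AKI to CKD was also compared with that of distal convoluted tubule cells, chosen by the mirror image of the rule (Slc12a3 in place of Slc12a1). The test used 90 and 55 of these cells in AKI and 257 and 22 in CKD. The other 623 of the 1047 cells found were in control, which was not in the test. Of 9411 genes 5 differed in that change between the cell types (0.0531%), 4 higher (0.0425%) and 1 lower (0.0106%) in thick ascending limb cells. Umod was at 139.6 and 112 in AKI and 107 and 119.8 in CKD in thick ascending limb cells, and 47.3 and 24.6 in AKI and 72.6 and 63.0 in CKD in distal convoluted tubule cells, so that its level in the distal convoluted tubule cells was higher in both CKD libraries than in both AKI libraries while that of thick ascending limb cells was not (difference of changes log2 -1.15 ± 0.21, adjusted p = 0.0440). The call was lost with DESeq2, which called 0 genes, and without AKI 2. For the main genes of this account the distal convoluted tubule cells gave the following levels side by side. Egf was at 32.5 in control, 1.75 and 0.534 in AKI and 4.49 and 3.67 in CKD, Spp1 at 11.6, 241 and 283, and 136 and 158, and Lcn2 at 0.0308, 14.4 and 14.6, and 4.62 and 17.4. The lower Egf and the higher Spp1 and Lcn2 of the AAI libraries were therefore present in both cell types, and no test against control was made in the distal convoluted tubule cells.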

How the data were processed

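The deposited values are whole-number UMI counts per gene and barcode for 32285 genes, made by the authors with Cell Ranger, version 7.2.0 per the labels, with STAR and GRCm39. The headers and names of some deposited files give another version or build, so the reference is uncertain for these counts. The members, the gene lists and the tests were chosen with earlier results of these data known. UMIs were summed over the thick ascending limb cells of each library and tested with edgeR 4.0.16 in R 4.3.3 (TMM, filterByExpr, quasi-likelihood test, Benjamini-Hochberg adjustment over all genes tested), after a check on simulated data. Slc12a1, Slc12a3, Ptprc and Slc34a1 were left out of the calls, as were Cldn10 and Cldn16 between claudin classes, where the library was a block. Mitochondrially encoded genes, which the rule limits, stayed in the fit and were left out as an alternative. Doublets were removed only through the Ptprc, Slc12a3 and Slc34a1 limits. Libraries held 90028670 to 121316769 UMIs. Intervals are exact binomial or Poisson at 95%. Named genes were the 8 largest called changes in each direction (6 for the classes and the interaction) under the limits given in the report, and genes of the lists. Some genes that met these rules are not reported here. DESeq2 1.42.0, other filters, limits and each library left out were alternatives.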

Additional observations from a re-analysis of the deposited data

Results flagged for a closer look

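For 5 genes the change from AKI to CKD differed between thick ascending limb and distal convoluted tubule cells by a test of the difference itself, edgeR's quasi-likelihood test of the interaction with the library as a block. DESeq2 called 0 genes, with 80 at an unadjusted p under 0.05. Umod was the only one that was lower in CKD relative to the other cell type (log2 -1.15 ± 0.21, adjusted p = 0.0440). Atp6v1g3, a proton pump subunit of intercalated cells (log2 3.08 ± 0.44, adjusted p = 0.00558), was at 0.101 and 0.155 in AKI and 1.08 and 0.515 in CKD in thick ascending limb cells, and 0.444 and 2.23 in AKI and 1.26 and 0.127 in CKD in distal convoluted tubule cells. Hsd11b2, the cortisol-inactivating enzyme of aldosterone-sensitive cells (log2 2.31 ± 0.34, adjusted p = 0.00558), was at 0.544 and 1.02 in AKI and 0.985 and 0.0147 in CKD in thick ascending limb cells, and 1.83 and 3.83 in AKI and 0.666 and 0.127 in CKD in distal convoluted tubule cells. Without CKD 1 its difference turned to -1.18 on the log2 scale, and the call was lost under 3 of 7 alternatives. Xcl1, a chemokine of lymphocytes (log2 2.28 ± 0.36, adjusted p = 0.00735), was at 0.342 and 0.129 in AKI and 0.615 and 0.132 in CKD in thick ascending limb cells, and 1.28 and 0.494 in AKI and 0.447 and 0.190 in CKD in distal convoluted tubule cells. Its call was lost with DESeq2, without AKI 1, without CKD 1 and at the stricter limits of 5 UMIs and 10 per 10000 (log2 0.78 to 2.34). The noncoding gene Gm26917 (log2 1.36 ± 0.22, adjusted p = 0.0106) was at 5.14 and 6.59 in AKI and 9.45 and 10.7 in CKD in thick ascending limb cells, and 6.59 and 8.32 in AKI and 4.93 and 4.81 in CKD in distal convoluted tubule cells. Its call was lost with DESeq2, without AKI 1 and without AKI 2 (log2 1.34 to 1.39). Atp6v1g3 and Hsd11b2 belong to the collecting duct list, and CKD 2 held 22 distal convoluted tubule cells, so their levels there rest on few UMIs.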

How the results depend on the processing

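Counts of called genes depended strongly on the cells and libraries used, and the cause was not tested. They are given for CKD against AKI, AKI against control and CKD against control in turn (6, 324 and 81 as reported). Without a filter on low counts they were 437, 1010 and 882, with at least 5 Slc12a1 UMIs and 10 per 10000 they were 15, 766 and 513, and with a mitochondrial limit of 15% they were 0, 12 and 0 (439 and 1011 genes at an unadjusted p under 0.05 in the first and last, by edgeR). Without cells in which another cell type outweighed the markers they were 51, 688 and 486. DESeq2 called 26 in CKD against AKI. Without cells with UMIs of other cell types 16 and 187 were called in CKD against AKI and CKD against control. Without the 10% of cells with most UMIs 55 and 26 were called in AKI and CKD against control, and with no mitochondrial limit 580 and 415. The settings without outweighed cells, without a mitochondrial limit and with at least 5000 UMIs were chosen after seeing the data. Leaving out each library in turn gave 0 to 917, 105 to 2183 and 58 to 2120. In CKD against AKI, 0 were called without AKI 1 (338 at an unadjusted p under 0.05, by edgeR), 1 without AKI 2, 200 without CKD 1 and 917 without CKD 2. In AKI against control the counts were 105, 185, 2099 and 2183, and in CKD against control 58, 325, 774 and 2120, in the same order, with the lone library of a pair assumed to vary like the others.

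The replicate block gave 87 genes in CKD against AKI. The numbers share no animal in the labels and the deviations of AKI 1 and CKD 1 correlated at 0.0814 over genes, so they do not pair the libraries.

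Between the claudin classes (320) DESeq2 called 108, no filter 628, the stricter Slc12a1 limit 109 and cells of at least 5000 UMIs 187, with 160 to 389 on leaving out a library. In the comparison with distal convoluted tubule cells (5) DESeq2 called 0 (80 at an unadjusted p under 0.05), no filter 39 and the stricter limit 11, with 17 to 39 on leaving out a library. The sign turned for Krt19 in AKI against control without cells with UMIs of other cell types (-0.019) and for Hsd11b2 in the latter comparison without CKD 1 (-1.18 in a range of -1.18 to 2.40 on leaving out a library).

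The share of thick ascending limb cells in control was 13.7% of barcodes without Ptprc, 6.17% at the stricter limit, 5.31% and 15.6% at a 15% or no mitochondrial limit, 7.79% thinned and 7.34% without cells outweighed by another type. In the same order, leaving out values that moved little, they were 6.20%, 1.07%, 1.33%, 2.77% and, without outweighed cells, 1.33% in AKI 1, and 4.26%, 0.700%, 0.705% and 2.16% in AKI 2. In CKD 1 they were 11.5%, 2.22%, 3.77%, 6.82%, 3.98% and 3.58%, and in CKD 2 5.37%, 0.652% and, with no mitochondrial limit, 1.62%. Control was highest under each of these. Cells per library, down to 79, and 1 control library limit all comparisons.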
